A study of Homo sapiens with 12 samples.

Results

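Of the 123411 sgRNA entries counted in this screen, 2000 belong to control guides that target no gene. These were taken as the entries named dummyguide in the gene column, 1000 listed for library A of the GeCKO v2 pool and the same 1000 listed again for library B, so that each guide was counted once and 1000 guides resulted. The other 121411 entries are sgRNAs against 20915 gene names. A control guide leads Cas9 to no intended site in the human genome, and in the cell that carries it the guide is in effect a heritable tag. In a pooled screen the read count of a guide follows the number of cells that carry it. Guides without a target therefore serve as the measure of how far counts move when no gene is disrupted, through uneven growth and loss of cell clones, differences that already existed between the tagged cells, and sampling of cells and reads.

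The screen asked which gene knockouts let HER2-amplified gastric cancer cells survive lapatinib, a small molecule that blocks the EGFR and HER2 kinases. N87 comes from a gastric carcinoma and OE19 from an adenocarcinoma at the junction of oesophagus and stomach. Each line was infected in 2 separate replicates with lentivirus that carries Cas9 and a guide on the same plasmid, at a multiplicity of infection of about 0.3. All 6 conditions share the infection and 7 days of puromycin (0.75 µg/mL for N87, 1.5 µg/mL for OE19). Baseline cells were collected at that point, vehicle cells after 14 further days with DMSO, and lapatinib cells after 14 days with 0.5 µM lapatinib in N87 or 1 µM in OE19, so every comparison of the lines under lapatinib is also one of doses. There were 2 libraries per condition and 12 in all, and sgRNA counts hold no marker by which the identity of the lines could be checked.

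The libraries held 13105805 to 33743599 reads, and 187933 to 532733 of these were reads of control guides. Each of the 1000 guides had at least 1 read in every library. The median count of a control guide was lowest, at 128, in OE19 lapatinib replicate 1 and highest, at 485, in N87 baseline replicate 1. Fewer than 40 reads were counted for 63 and 26 guides in the N87 lapatinib libraries and for 91 and 22 in the OE19 lapatinib libraries, against 1 to 8 guides in any baseline or vehicle library. The counts are of reads without molecular identifiers, so that intervals and counting variances given below cover counting error only. The edgeR p-values set a change against the spread between the 2 libraries of a condition, with variances moderated over all entries. A small p-value does not tell why both libraries of a condition moved alike. The permutation tests compare 1 value per library.

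The library A and library B entries of a guide behaved as reads of the same sequence. Within a library the log2 counts of the entries correlated with r = 0.959 to 0.984 across the 1000 guides, and the count of one guide against the next guide in the list gave r = 0.0149 to 0.0599. The entry of library A held 49.8% to 50.2% of the control reads. The spread of this split was 1.27 to 2.69 times the binomial variance, and the log ratio of the entries correlated between libraries by anything from -0.34 to 0.40, so the division of a guide's reads between its entries was not random in every library. How reads that match both entries were assigned is not stated in the sources used here. The entries of a guide were therefore summed, and the guides are named below by their library A identifier (the number of the library B entry is lower by 22). Normalized counts are counts divided by the median-of-ratios size factor of the library over all entries.

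At baseline and with vehicle the control guides formed a narrow distribution in both lines. Their median normalized count was 297 and 301 in the N87 baseline libraries, 315 and 327 in the N87 vehicle libraries, 295 and 292 in the OE19 baseline libraries, and 345 and 332 in the OE19 vehicle libraries. The 90th percentile was 4.47 to 4.72 times the 10th percentile in these 8 libraries. On the log2 scale, the interquartile range of the normalized counts of control guides was 1.10 ± 0.0031 (SD, n = 2) at baseline and 1.09 ± 0.045 (SD, n = 2) with vehicle in N87, and 1.09 ± 0.018 (SD, n = 2) and 1.09 ± 0.0048 (SD, n = 2) in OE19. By the interquartile range, vehicle and baseline differed by -0.00880 in N87 and 0.000353 in OE19 (both lines, exact two-sided permutation test of libraries within lines, p = 0.889, smallest p possible 0.0556). The SD of the log2 normalized counts, which also weighs the tails, was higher with vehicle by 0.0107 in N87 and 0.0327 in OE19, in each vehicle library above both baseline libraries of its line, and over both lines by 0.0217 (same exact permutation test, p = 0.0556, the smallest possible).

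The order of the guides was also shared by these libraries. Across guides, log2 normalized counts of the 28 pairs of baseline and vehicle libraries correlated with r = 0.929 to 0.982, including pairs from different lines, which have the plasmid pool in common. The most abundant control guide was HGLibA_14742 or HGLibA_14323 in all 8 of them. HGLibA_14742 had normalized counts of 1131 and 1132 in the N87 baseline libraries and 1078 and 1014 in the OE19 baseline libraries, and HGLibA_14323 had 1102 and 1149 in the former and 1058 and 1066 in the latter.

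Over 14 days with vehicle the counts of control guides changed little, and little of the movement was shared by the replicates. In N87 the log2 changes from baseline to vehicle ran from -0.69 to 0.87 in replicate 1 and from -1.36 to 1.46 in replicate 2, and in OE19 from -1.06 to 1.35 and from -0.83 to 0.96. None of the 1000 guides changed over 2-fold in the same direction in both replicates of either line. Among gene-targeting sgRNAs 0.0156% were higher and 0.369% lower in this way in N87, and 0.0527% and 1.19% in OE19. The changes of the replicates correlated across guides with r = 0.0165 in N87 and 0.0940 in OE19 (n = 1000 guides, which share their libraries and the plasmid pool). The covariance of the replicates made up 1.63% of the mean variance of the changes in N87 and 9.03% in OE19, and the variance expected from counting reads made up 33.4% and 26.4%. The rest was neither counting error nor shared, and its source was not tested.

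The edgeR quasi-likelihood test over all entries, adjusted by the Benjamini-Hochberg method at 0.05, called no control guide between vehicle and baseline, though with the replicate number as a block it called 9 higher in N87 (0.263% of all entries) and 41 higher in OE19 (0.631% of all entries). In N87 0 guides were higher, as among all entries tested (0% higher), and 0 were lower (0.0402% of all entries). In OE19 0 were higher (0.0115% of all entries) and 0 lower (0.878% of all entries). At an unadjusted p under 0.05, edgeR gave 85 control guides in N87 (8.5%, against 7.70% of all entries) and 206 in OE19 (20.6%, against 12.8%). With library A entries alone these shares were 3.3% in N87 (against 7.67%) and 9.6% in OE19 (against 12.7%). With library B entries alone they were 4.1% (against 7.67%) and 9.7% (against 12.7%). At the adjusted threshold DESeq2 called 0 guides in N87 and 2 higher in OE19 (0.0263% of all entries). Ribosomal protein genes, taken by name alone and for the most part needed for growth, served as a reference. By the edgeR test 46 of their 493 tested sgRNAs were lower in OE19, with a median log2 change of -0.41. In N87 0 of 493 were called, with a median of -0.43. Here 1 library decided the count of control guides: without N87 vehicle replicate 1, 47 guides were higher and 1 lower in N87 (2.15% and 4.72% of all entries), and without N87 vehicle replicate 2, 9 were higher (0.444% of all entries). In OE19 80 were higher and 1 lower without vehicle replicate 1 (2.47% and 5.19% of all entries), and 321 higher and 16 lower without vehicle replicate 2 (13.0% and 14.4%). Those fits leave a condition with 1 library, which is assumed to vary like the others.

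As a group, control guides were slightly higher relative to the rest of the pool after this time. Their median edgeR log2 change from baseline to vehicle was 0.09 in N87 and 0.19 in OE19, against 0.02 and 0.01 over all entries. Their share of all reads went from 1.59% ± 0.018 (SD, n = 2) to 1.69% ± 0.034 (SD, n = 2) in N87 and from 1.55% ± 0.024 (SD, n = 2) to 1.76% ± 0.045 (SD, n = 2) in OE19. The share was higher in each of the 4 vehicle libraries than in either baseline library of its line. Over both lines the mean difference was 0.149 percentage points (exact two-sided permutation test within lines, p = 0.0556, the smallest possible with 36 arrangements), and within a line 2 libraries against 2 cannot give a p below 0.33.

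Control guides were spread more widely with lapatinib than with vehicle in both lines, and most in N87. The 90th percentile of normalized counts was 17.0 and 9.71 times the 10th percentile in the N87 lapatinib libraries and 6.88 and 5.54 times in the OE19 lapatinib libraries. The interquartile range on the log2 scale was 1.89 ± 0.20 (SD, n = 2) in N87 and 1.33 ± 0.11 (SD, n = 2) in OE19, wider than with vehicle by 0.79 and 0.24. All 4 lapatinib libraries lay above the 4 vehicle libraries, where the range was 1.09 ± 0.045 (SD, n = 2) and 1.09 ± 0.0048 (SD, n = 2). Over both lines the mean difference of 0.52 gave the smallest p this design allows (exact two-sided permutation test within lines, p = 0.0556).

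Reads were also held by fewer control guides. The effective number of control guides, the reciprocal of the summed squared shares, was 764 to 774 in the baseline and vehicle libraries, and the vehicle mean differed from that at baseline by -5.02 in N87 and -7.08 in OE19. With lapatinib it stood at 527 and 584 in N87, and at 124 and 424 in OE19, below every vehicle library (both lines, exact two-sided permutation test within lines, p = 0.0556, the smallest possible). The 10 most abundant control guides held 5.72% and 5.24% of the control reads in the N87 lapatinib libraries, 21.3% and 8.97% in the OE19 lapatinib libraries, and 2.96% to 3.08% in the baseline and vehicle libraries. In OE19 lapatinib replicate 1 alone, HGLibA_14976 took 5.31% of the control reads. At the other end, the 500 least abundant guides held 17.5% and 20.4% of the control reads in the N87 lapatinib libraries and 19.3% and 24.7% in the OE19 lapatinib libraries, against means of 28.8% to 29.1% in the other conditions. By these measures the N87 guides were spread more widely throughout, and in OE19 a few guides at the top held more of the reads.

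The share of all reads that went to control guides did not move in the same direction in the lines. In N87 control guides took 1.72% ± 0.0025 (SD, n = 2) of the reads of lapatinib libraries, and 1.69% ± 0.034 (SD, n = 2) of those of vehicle libraries. In OE19 the shares were 1.46% ± 0.038 (SD, n = 2) and 1.76% ± 0.045 (SD, n = 2), and both lapatinib libraries lay below both vehicle libraries. Neither line can give a p below 0.33 in the exact permutation test, which is the value both gave, and over both lines the mean difference of -0.128 percentage points gave p = 0.33. With the 100 most abundant gene-targeting entries left out, the OE19 shares were 1.71% and 1.61% with lapatinib and 1.80% and 1.73% with vehicle, the mean difference in OE19 was -0.104 percentage points, and that over both lines -0.0241 (exact permutation test, p = 0.667). Olfactory receptors are odour sensors that gastric cells are not known to need, and as a share of the reads of control guides and olfactory receptor sgRNAs alone, control guides differed by 0.753 percentage points between lapatinib and vehicle over both lines. This was 1.64 percentage points in N87, where both lapatinib libraries lay above both vehicle libraries, and -0.137 in OE19, where they overlapped (both lines, p = 0.278, exact permutation test).

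In N87 the changes of control guides with lapatinib had much the same order in both replicates, but not the same size. Their SD on the log2 scale was 1.21 in replicate 1 and 0.909 in replicate 2. The log2 changes from vehicle ran from -4.62 to 3.75 in replicate 1 and from -2.61 to 3.77 in replicate 2. They correlated across guides with r = 0.921 (Spearman's rho 0.934, n = 1000 guides), against r = 0.871 for gene-targeting sgRNAs. The same sign in both was found for 893 guides (89.3%, against 89.4% of gene-targeting sgRNAs). The covariance of the replicates made up 88.5% of the mean variance, and counting error 2.05%. With the vehicle replicates exchanged the correlation was 0.898. In both replicates 183 guides were over 2-fold higher and 81 over 2-fold lower (18.3% and 8.1%, against 17.8% and 19.8% of gene-targeting sgRNAs). Over 4-fold these were 18 and 8 (1.8% and 0.8%, against 4.25% and 3.51%).

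In OE19 the replicates shared less of the change. The log2 changes ran from -4.92 to 6.49 in replicate 1 and from -1.49 to 4.49 in replicate 2, and they correlated with r = 0.664 and a Spearman's rho of 0.431. The covariance made up 59.4% of the mean variance and counting error 6.58%, and 669 guides had the same sign in both replicates (66.9%, against 63.1% of gene-targeting sgRNAs). Over 2-fold, 20 guides were higher and 3 lower in both replicates (2% and 0.3%, against 2.81% and 1.20% of gene-targeting sgRNAs). Over 4-fold 9 were higher and 0 lower (0.9% and 0%, against 0.877% and 0.118%). The central part of the distribution stayed close to vehicle, with the 10th and 90th percentiles of the log2 change at -0.85 and 0.66 in replicate 1 and at -0.54 and 0.36 in replicate 2.

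Replicates of a condition were also compared directly. The chi-square per degree of freedom of the control counts between replicates, which is 1 for counting error alone, was 2.51 for the N87 baseline libraries, 4.70 for vehicle and 9.92 for lapatinib. In OE19 it was 1.69, 6.17 and 21.9. It was highest with lapatinib in each line, although the lapatinib libraries were not the deepest.

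The edgeR test called 615 of the 1000 control guides in N87 between lapatinib and vehicle. Of these 401 were higher (40.1%, against 31.1% of all entries tested) and 214 lower (21.4%, against 29.9% of all entries). With their 2 entries summed, control guides were therefore called about as often as entries in general, 61.5% against 61.0%, though none of them has a target. With library A entries alone 51.9% of control guides were called, against 61.1% of all entries. With library B entries alone 52.8% were called, against 61.1%. The division into higher and lower rests on the scaling. With total counts only, 222 were higher and 403 lower (22.2% and 40.3%, against 19.0% and 45.0% of all entries). When TMM factors were taken from the control guides themselves, 303 were higher and 306 lower (30.3% and 30.6%, against 24.7% and 37.4% of all entries). The median log2 change of control guides was 0.24 under TMM over all entries, -0.28 with total counts and -0.03 with control guide factors, while that of all entries was -0.07, -0.60 and -0.34. Relative to all entries, the median of control guides was thus 0.32, 0.32 and 0.31 higher, and 0.15 higher where at least 200 counts were required of an entry. Without N87 vehicle replicate 1 there were 246 guides higher (24.6%, against 24.9% of all entries), and without N87 vehicle replicate 2 there were 262 higher and 136 lower (26.2% and 13.6%, against 24.7% and 15.9% of all entries).

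In OE19 the same test called 15 control guides, all of them higher (1.5%, against 2.37% of all entries tested), and 0 lower (0.0827% of all entries). DESeq2 called 25 higher (2.5%, against 3.05% of all entries) and 0 lower, and 141 guides had an unadjusted p under 0.05 in edgeR (14.1%, against 15.5%). The count rests on single libraries: without either OE19 vehicle replicate 0 guides were called higher, and without lapatinib replicate 1 or 2 there were 32 or 79 higher (4.39% or 8.56% of all entries) and 11 or 53 lower (0.404% or 3.73%). With total counts only, 12 were higher and 7 lower (1.2% and 0.7%, against 1.40% and 0.293% of all entries). The median log2 change of control guides was -0.13 under TMM over all entries, -0.58 with total counts and -0.01 with control guide factors, and that of all entries -0.02, -0.46 and 0.10. Control guides were thus 0.11 below all entries under each.

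The guides that rose most in N87 started from very different levels. HGLibA_14628 had normalized counts of 229 and 205 before treatment, 237 and 249 after vehicle, and 3204 and 2500 with lapatinib, which is 11.7-fold higher than with vehicle (edgeR log2 change 3.49 ± 0.25 SE, adjusted p = 6.22e-08). HGLibA_14419 had 39.8 and 38.4 before, 73.4 and 44.2 after vehicle, and 895 and 614 with lapatinib (12.6-fold, adjusted p = 8.16e-08). These guides were low or intermediate before treatment and far above every vehicle library after it. HGLibA_15007 had 570 and 557 before, 622 and 536 after vehicle, and 4960 and 4496 with lapatinib (8.15-fold, adjusted p = 3.59e-07), and it was the most abundant control guide of both N87 lapatinib libraries. HGLibA_14437 went from 181 and 120 to 1538 and 1065 (8.60-fold), and HGLibA_14174 from 173 and 232 to 1982 and 1396 (8.31-fold). In all 5 guides the lapatinib libraries lay above the vehicle and baseline libraries without overlap.

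In OE19 none of these 5 guides rose. With vehicle and then with lapatinib HGLibA_14628 had normalized counts of 315, 245, 150 and 197 in OE19, and HGLibA_15007 had 694, 552, 638 and 521. HGLibA_14419 had 22.9, 38.6, 43.9 and 24.8. Their folds in OE19 were 0.62 to 1.11 and none passed the test (adjusted p 0.24 to 0.946). The difference between the lines passed the interaction test for each of them, with OE19 lower than N87 by 3.07 to 4.17 on the log2 scale (edgeR adjusted p 2e-05 to 0.000314). The 5 guides were picked by their rise in the same N87 libraries, so this test does not stand apart from the choice.

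The guides that fell most in N87 were mostly rare ones, whose counts rest on few reads. HGLibA_14518 was the most abundant of the 5, with normalized counts of 296 and 313 before treatment, 283 and 317 after vehicle, and 38.4 and 69.8 with lapatinib (0.183-fold, edgeR log2 change -2.52 ± 0.30 SE, adjusted p = 4.76e-06). HGLibA_14317 went from 146 and 133 with vehicle to 22.3 and 26.5 (0.181-fold, adjusted p = 9.37e-05). HGLibA_14586 went from 54.0 and 78.4 to 1.24 and 12.0, which are 1 and 10 reads (0.114-fold, adjusted p = 0.00181). HGLibA_14809 had 1 and 7 reads with lapatinib after 47 and 55 with vehicle, and HGLibA_14944 had 2 and 8 after 31 and 64. The lapatinib libraries of all 5 lay below the vehicle libraries. In OE19 their folds were 0.57 to 2.01 and none passed the test.

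In OE19 3 control guides were over 16-fold higher in both replicates. HGLibA_14976 had normalized counts of 285 and 305 before treatment, 316 and 342 after vehicle, and 25776 and 7692 with lapatinib, which is 50.7-fold. HGLibA_14640 had 304 and 330, then 473 and 434, then 24376 and 8317, which is 36.0-fold. These were the most abundant control guides of lapatinib replicates 1 and 2, and neither passed the edgeR test (adjusted p = 0.0934 and 0.113), with standard errors of 1.56 and 1.49 on the log2 scale. In both guides lapatinib replicate 1 was above replicate 2. HGLibA_14479 had 100 and 119, then 80.4 and 131, then 7303 and 2348, and with 45.3-fold it did pass (log2 change 5.49 ± 0.82 SE, adjusted p = 0.0061). It was among the rarer control guides before treatment and among the most abundant after it.

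The other leading guides of OE19 that passed showed the same shape, with replicate 1 above replicate 2. HGLibA_15020 went from 247 and 170 with vehicle to 5774 and 2211 with lapatinib (19.0-fold, adjusted p = 0.00855), and HGLibA_14611 from 333 and 363 to 6567 and 2087 (12.4-fold, adjusted p = 0.0212). HGLibA_14629 went from 326 and 291 to 5219 and 1436 (10.8-fold), and HGLibA_14901 from 425 and 359 to 5258 and 1957 (9.19-fold). In N87 with vehicle and then lapatinib, HGLibA_15020 had 208, 178, 170 and 201, HGLibA_14611 had 285, 300, 295 and 338, and HGLibA_14901 had 418, 426, 422 and 444. Lapatinib and vehicle counts of these 3 guides were of the same size in N87, with folds of 0.963 to 1.08 (adjusted p 0.69 to 0.919). HGLibA_14479 and HGLibA_14629 fell there, 0.336-fold and 0.651-fold (adjusted p = 0.00737 and 0.0116). For all 5 guides, and for HGLibA_14976 and HGLibA_14640, the difference between the lines passed the interaction test, with log2 differences of 3.22 to 7.17. These guides were picked by their change or count in OE19 libraries that enter the test, so it does not stand apart from the choice.

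No guide was over 4-fold lower in both OE19 replicates. The lowest change of replicate 1 was that of HGLibA_14608, chosen here after its values were seen, which had 1 read with lapatinib in that replicate. Its normalized counts in OE19 were 108 and 86.3 with vehicle and 2.58 and 77.5 with lapatinib, so the replicates disagreed and the test was not passed (adjusted p = 0.474). In N87 the same guide went from 88.8 and 123 to 577 and 442 (4.76-fold, adjusted p = 1.8e-06).

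Large rises in OE19 had shares of the same order among control guides and gene-targeting sgRNAs, which was not put to a test. Over 16-fold higher in both replicates were 0.3% of control guides (3 guides) and 0.180% of gene-targeting sgRNAs, and over 8-fold 0.4% and 0.411%. Over 2-fold the shares were 2% and 2.81%. In N87 over 8-fold higher were 0.3% against 0.794%, and over 4-fold lower 0.8% against 3.51%. A control guide sums its library A and library B entries and a gene-targeting sgRNA has 1 entry, so the counting error of the latter is larger.

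Across the 1000 guides the changes of N87 and OE19 with lapatinib showed hardly any relation. The means over replicates correlated with r = -0.00476 and a Spearman's rho of 0.0140, and the 4 combinations of replicates gave r = -0.0194 to 0.0259 (n = 1000 guides, no library in common). For olfactory receptor sgRNAs r was 0.00783 (n = 2256) and for all gene-targeting sgRNAs 0.0209. The change from baseline to vehicle correlated between the lines with r = 0.0175 for control guides, while for gene-targeting sgRNAs, which include those against genes needed for growth, r was 0.381 and for olfactory receptor sgRNAs 0.193. Within a line, the changes from baseline to vehicle in one replicate and from baseline to lapatinib in the other, which share no library, correlated at r = 0.0748 and 0.00253 for N87, and at 0.0242 and 0.0626 for OE19.

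A few control guides were called in both lines. Of the 615 guides called in N87 and the 15 called in OE19, 10 were called in both, which is 1.63% of the former and 66.7% of the latter, and this is to be read against the 61.5% of all control guides called in N87. Of these 10, 7 were higher in both lines and 3 (HGLibA_14479, HGLibA_14629 and HGLibA_14649) lower in N87 and higher in OE19. All 15 calls of OE19 were higher, and in N87 40.1% of all control guides were called higher and 21.4% lower. The 7 and the 3 are to be read against those shares. Over 2-fold higher in both replicates of both lines were 5 guides, HGLibA_14308, HGLibA_14353, HGLibA_14371, HGLibA_14445 and HGLibA_14640, and over 2-fold lower was 1, HGLibA_14555, and none passed 4-fold in all. Within a line, 18.3% of control guides in N87 and 2% in OE19 were over 2-fold higher in both replicates, and 8.1% and 0.3% lower. Some overlap is thus to be had without any link between the lines, and whether these counts exceed it was not tested. HGLibA_14308, HGLibA_14555 and HGLibA_14649 were named after their values were seen.

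Of the 7, HGLibA_14353 had the smallest difference between the lines. In N87 it had normalized counts of 179 and 158 with vehicle and 557 and 463 with lapatinib (3.02-fold, adjusted p = 1.7e-05), and in OE19 186 and 176 with vehicle and 767 and 377 with lapatinib (3.15-fold, adjusted p = 0.0194). HGLibA_14371 rose from 313 and 269 to 919 and 698 in N87 (2.77-fold) and from 377 and 286 to 1400 and 670 in OE19 (3.11-fold, adjusted p = 0.0466). HGLibA_14493 rose 2.46-fold and 3.02-fold. For these 3 guides the interaction test found no difference between the lines (log2 difference 0.11 ± 0.39, 0.22 ± 0.43 and 0.36 ± 0.43 SE, adjusted p 0.523 to 0.836). At these errors that does not show that the lines moved alike.

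The other 4 had larger folds in OE19. HGLibA_14445 went from 252 and 268 to 539 and 543 in N87 (2.08-fold) and from 234 and 262 to 2484 and 761 in OE19 (6.52-fold), and HGLibA_14406 rose 1.56-fold in N87 and 7.02-fold in OE19. HGLibA_14907 rose 1.60-fold and 3.64-fold. The interaction test was passed by these 3 (log2 difference 1.71, 2.23 and 1.24, adjusted p = 0.0208, 0.00234 and 0.0206) and not by HGLibA_14914, which rose 1.85-fold and 3.56-fold (adjusted p = 0.0798). At the low end, HGLibA_14555 went from 34.7 and 63.4 to 7.44 and 15.6 in N87 (0.251-fold, adjusted p = 0.0154) and from 34.7 and 19.3 to 5.16 and 6.20 in OE19 (0.239-fold, adjusted p = 0.218).

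Over all 1000 guides the interaction of line and lapatinib was called for 432 (43.2%, against 41.3% of all entries tested). Of these 125 were higher in OE19 than in N87 (12.5%, against 20.7% of all entries) and 307 lower (30.7%, against 20.6%). Since the dose differs between the lines, dose and line cannot be told apart here. With TMM factors from the control guides the division was 218 higher and 179 lower, against 30.2% and 13.6% of all entries. With library A entries alone 79 were higher and 273 lower (7.9% and 27.3%, against 20.7% and 20.5% of all entries).

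The most abundant guides after lapatinib were mostly shared by the replicates of a line and less by the lines. Of the 50 most abundant control guides, the N87 lapatinib replicates had 42 in common and the OE19 lapatinib replicates 33, against 37 and 36 for the vehicle replicates. A lapatinib library of N87 and one of OE19 had 12 to 18 in common. The 50 guides of the N87 lapatinib libraries held 19.4% and 17.5% of the control reads there and 8.74% and 9.26% with vehicle, and those of OE19 held 32.1% and 19.0% against 8.91% and 10.3%. These guides were picked by their counts in the same lapatinib libraries. A lower share with vehicle therefore follows in part from the choice. Over all guides, log2 normalized counts correlated with r = 0.964 between the N87 lapatinib replicates, 0.908 between those of OE19, and 0.502 to 0.654 between a lapatinib library of N87 and one of OE19.

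In N87 rare guides moved further than abundant ones. When the guides were ordered by their baseline level in the other line, which shares no library with the change, the shared SD of the log2 change with lapatinib in N87 (the square root of the covariance of the replicates) was 1.22 for the 334 guides of lowest level, 0.94 for the 333 in the middle and 0.77 for the 333 of highest level. In OE19 it was 0.56, 0.60 and 0.39. The size of the change correlated with the baseline level of the other line at r = -0.337 in N87 and r = -0.188 in OE19. The signed change followed it with r = 0.191 and 0.152 (n = 1000 guides). Counting variance, at 0.0489 for the rarest guides of N87 and 0.0605 for those of OE19, was small beside the variance shared by the replicates. The place of a guide in the list, by contrast, was hardly related to its change (r = -0.0270 and -0.0558).

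In both lines the changes of control guides were less spread than those of olfactory receptor sgRNAs, which was not put to a test. In OE19 the part of the variance that replicates shared differed little. In N87 the variance of the log2 change with lapatinib that replicates shared was 1.01 for control guides and 1.57 for the 2256 olfactory receptor sgRNAs, and the correlation of replicates was 0.921 and 0.884. In OE19 the shared variance was 0.279 and 0.300, and the correlation 0.664 and 0.506. With counting error included, the SD of the OE19 changes was 0.823 and 0.947 in replicate 1, and 0.510 and 0.625 in replicate 2. With lapatinib the log2 interquartile range was 1.89 ± 0.20 (SD, n = 2) against 2.43 ± 0.39 (SD, n = 2) in N87 and 1.33 ± 0.11 (SD, n = 2) against 1.57 ± 0.15 (SD, n = 2) in OE19. It was already narrower at baseline, 1.10 ± 0.0031 (SD, n = 2) against 1.31 ± 0.017 (SD, n = 2) in N87 and 1.09 ± 0.018 (SD, n = 2) against 1.33 ± 0.026 (SD, n = 2) in OE19. A control guide was supplied by both libraries of the pool and an olfactory receptor sgRNA by 1, and the part of this in the difference was not tested.

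Lapatinib was also compared with baseline. In N87 473 control guides were higher (33.8% of all entries) and 205 lower (33.7% of all entries), which are 47.3% and 20.5% of the control guides. With total counts only these were 273 and 404 (27.3% and 40.4%, against 20.8% and 49.4% of all entries). Without N87 baseline replicate 1 or 2 the median log2 change of control guides was 0.33 or 0.36, against -0.06 over all entries in each fit. In OE19 edgeR called 0 higher (0.000824% of all entries) and 0 lower (0% of all entries), with 153 guides at an unadjusted p under 0.05 (15.3%, against 19.9% of all entries), while DESeq2 called 59 higher and 3 lower (5.99% and 1.58% of all entries). Even so, 23 guides were over 2-fold higher and 1 lower in both OE19 replicates (2.3% and 0.1%, against 2.25% and 1.68% of gene-targeting sgRNAs), and the changes of the replicates correlated with r = 0.725. Without OE19 lapatinib replicate 1 or 2, edgeR called 155 or 258 higher (12.1% or 19.9% of all entries) and 47 or 108 lower (7.02% or 16%). The lapatinib libraries are the same as in the comparison with vehicle, so the comparisons are not independent.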

How the data were processed

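The deposited table holds raw read counts per sgRNA for 12 libraries of PCR-amplified sgRNA inserts from genomic DNA. Before deposit the authors trimmed reads with scripts of their own, aligned them to the sgRNA list with Bowtie (fewer than 2 mismatches allowed) and joined the libraries into 1 matrix of counts, and the submitters' processing notes name Bowtie2 2.3.2, FastQC 0.11.5 and MAGeCK 0.5.6. Here the library A and library B entries of each control guide were summed, and comparisons within a line used edgeR 4.0.16 (glmQLFit and glmQLFTest, TMM over all entries, at least 40 counts over the 4 libraries, 80 for the interaction of line and lapatinib over 8) in R 4.3.3, with limma 3.58.1. All 1000 control guides passed these minimums. P-values were adjusted by the Benjamini-Hochberg method over all entries with a threshold of 0.05. Standard errors are those of edgeR's log2 changes. Normalized counts use median-of-ratios scaling, and folds and log2 changes of replicates a pseudocount of 1. Values of whole libraries were compared by exact permutation, with scipy 1.17.1, pandas 2.3.3 and numpy 2.4.6 under Python 3.11.15. At the depth of these libraries the 95% Wilson interval of the control share reached at most ± 0.00644 percentage points.

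Alternatives were DESeq2 1.42.0, other scalings, minimum counts of 1 and 200, library A or B entries alone, a replicate block, other denominators, pseudocounts of 0.5 and 5, and each library left out. The edgeR step was tested on simulated data. The guides named are, in each line, the 5 highest and the 5 lowest called with the same direction in both replicates (the 5 lowest in N87 only, since none was called lower in OE19), those called in the same direction in both lines, and the most abundant guide of each library, and any other guide is named as chosen later. The members, lists and tests were chosen with earlier results of these data known. Each line had 2 separate infection replicates. The labels do not state whether a replicate number stands for the same infection in the baseline, vehicle and lapatinib libraries. Same-numbered libraries were set against each other for the changes per replicate, and the number was a block in the edgeR fit only as an alternative: differences between replicates 1 and 2 correlated across control guides with r = 0.191 (N87) and 0.0761 (OE19) between baseline and vehicle, 0.0557 and 0.0753 between baseline and lapatinib, and 0.144 and -0.0158 between vehicle and lapatinib. Groups came from the labels.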

Additional observations from a re-analysis of the deposited data

Results flagged for a closer look

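Of the control guides named above, 21 changed with lapatinib differently in the lines by the edgeR interaction test (adjusted p under 0.05 over all entries), which at different doses cannot be told apart from an effect of dose. The guides were picked by their changes or counts in libraries that enter this test, so it does not stand apart from the choice. The values that follow are log2 changes in OE19 minus those in N87. Among the guides highest in N87, the difference was -3.48 for HGLibA_14419, -4.17 for HGLibA_14628, -3.34 for HGLibA_14437, -3.25 for HGLibA_14174 and -3.07 for HGLibA_15007. Among those lowest in N87 it was 3.44 for HGLibA_14586, 2.62 for HGLibA_14809, 3.69 for HGLibA_14944, 2.42 for HGLibA_14317 and 1.71 for HGLibA_14518. Guides highest in OE19 had 7.17 (HGLibA_14479), 4.37 (HGLibA_15020), 3.58 (HGLibA_14611), 4.11 (HGLibA_14629) and 3.22 (HGLibA_14901). Of the guides that rose in both lines, 3 rose more in OE19, by 1.71 (HGLibA_14445), 1.24 (HGLibA_14907) and 2.23 (HGLibA_14406). For the most abundant guides the difference was -1.12 for HGLibA_14323, 6.85 for HGLibA_14976 and 3.74 for HGLibA_14640. With 2 libraries per condition, single libraries could not be tested as outliers.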

How the results depend on the processing

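With total counts only, lapatinib against vehicle gave 222 higher and 403 lower in N87 (19.0% and 45.0% of all entries). In OE19 it gave 12 higher and 7 lower (1.40% and 0.293% of all entries). Lapatinib against baseline in N87 gave 273 higher and 404 lower (20.8% and 49.4% of all entries). With TMM factors from the control guides, 326 were higher and 335 lower in N87 lapatinib against baseline (24.6% and 44.8% of all entries). DESeq2 gave 25 higher in OE19 lapatinib against vehicle (3.05% of all entries) and 2 higher between OE19 vehicle and baseline (0.0263%). Between OE19 lapatinib and baseline it gave 59 higher and 3 lower (5.99% and 1.58% of all entries). The replicate block gave 9 higher in N87 (0.263% of all entries) and 41 higher in OE19 (0.631%) between vehicle and baseline. Between OE19 lapatinib and baseline it gave 40 higher and 1 lower (4.35% and 0.978% of all entries). Under the block, lapatinib against vehicle gave 411 higher and 220 lower in N87 (31.7% and 29.1% of all entries). In OE19 it gave 14 higher and 0 lower (2.43% and 0.0959% of all entries). The interaction under the block called 410, 117 higher and 293 lower (19.7% and 20.0% of all entries). The cause of these shifts was not tested. The control share over both lines, lapatinib minus vehicle, turned to 0.753 percentage points beside olfactory receptor reads. The spread from baseline to vehicle turned to 0.011 in N87 and 0.022 over both lines with the SD, and to 0.010 and 0.022 with counting variance subtracted. Replicate correlations were 0.431 (OE19 against vehicle) and 0.496 (OE19 against baseline) by Spearman's rho, and with crossed replicates -0.163 (N87) and 0.0276 (OE19) from baseline to vehicle.

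Leaving out each library in turn gave 246 to 443 higher and 136 to 243 lower in N87 with lapatinib against vehicle, 289 to 528 and 117 to 272 against baseline, and 0 to 47 and 0 to 1 for vehicle against baseline. In OE19 these were 0 to 79 and 0 to 53, 0 to 258 and 0 to 108, and 0 to 321 and 0 to 16. The interaction gave 266 to 466. The change in spread from baseline to vehicle lay between -0.0404 and 0.0228 in N87, -0.0124 and 0.0131 in OE19, and -0.0200 and 0.0116 over both lines. For the named guides, 429 of the alternative values kept the side of the threshold, 50 no longer passed and 12 newly passed. None turned direction where the main or the alternative value passed, and direction was not compared where neither did. Leaving out either OE19 vehicle library accounted for 12 losses each. Depth limits the guides with few lapatinib reads.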
